A study of Homo sapiens with 8 samples.

Results

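The miR-15/16 family is a set of microRNAs that share the bases by which a microRNA recognises its targets. In a deposited table of 2867 small RNA entries, 6 entries carried the names miR-15a, miR-15b, miR-16, miR-195 or miR-497. These entries were found by name, in a set drawn without miR-503 and with earlier results of these data known. They were the 5p arms miR-15a-5p, miR-15b-5p, miR-16-5p, miR-195-5p and miR-497-5p, which hold the family seed, and 1 opposite arm, miR-16-3p, which does not. The entries came from 8 small RNA libraries of HEK293, an established human embryonic kidney cell line. In 4 libraries the cells had been transfected with 100 nM of an ASO (antisense oligonucleotide), a synthetic strand that binds an RNA by base pairing. Library names carry miR-31, and the series title speaks of inhibiting precursor microRNAs. The other 4 libraries came from cells without ASO, and all cells were collected at 48 h. The ASO sequence is not given in the labels, no group received an unrelated ASO, and the titles do not say whether control cells were mock-transfected. The series' design text gives off-target changes as what the sequencing was for.

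A microRNA hairpin is cut into a 5p and a 3p strand, and usually 1 of them is loaded into an Argonaute protein while the other is lost. The loaded strand finds messenger RNAs mainly through its seed, bases 2 to 8 from its 5′ end, so microRNAs with the same seed can repress the same targets. The miR-15/16 family is known as a brake on the cell cycle and on survival, with cyclins D1 and E1, CDK6, CHEK1 and BCL2 among its targets. Loss of the miR-15a and miR-16-1 locus is a hallmark of chronic lymphocytic leukaemia.

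The 5 seed-bearing members are shown with the seed in capitals because this stretch defines the family, followed by miR-503-5p, a relative outside the set. All are RefSeq mature sequences of GRCh38.p14, written 5′ to 3′.
miR-15a-5p: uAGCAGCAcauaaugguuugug
miR-15b-5p: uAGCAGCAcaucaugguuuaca
miR-16-5p: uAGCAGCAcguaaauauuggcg
miR-195-5p: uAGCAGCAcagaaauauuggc
miR-497-5p: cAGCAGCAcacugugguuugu
miR-503-5p: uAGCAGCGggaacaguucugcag
All 5 arms were identical from base 2 to base 9 and at 10 of the 21 positions compared in all. Outside the seed, miR-195-5p differed from miR-16-5p at 2 of 21 bases, while miR-15a-5p differed from miR-15b-5p at 4 of 22 and from miR-497-5p at 4 of 21. miR-16-5p and miR-15a-5p differed at 6 of 22 bases and miR-16-5p and miR-497-5p at 10 of 21. Of the 7 RefSeq mature microRNAs with this seed, AGCAGCA, 5 were entries of the table.

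The 6 hairpin genes lie in 3 clusters of 2 (GRCh38). On chromosome 13, minus strand, MIR15A (50049119 to 50049201) and MIR16-1 (50048973 to 50049061) are 57 bases apart within the long noncoding RNA gene DLEU2. MIR16-1 is intronic in all 6 spanning transcripts of DLEU2 in GENCODE release 29, and MIR15A is intronic in 6 and exonic in 2 of 8. On chromosome 3, plus strand, MIR15B (160404588 to 160404685) and MIR16-2 (160404745 to 160404825) are 59 bases apart, in introns of all 13 spanning transcripts of SMC4, which encodes a condensin subunit. On chromosome 17, minus strand, MIR195 (7017615 to 7017701) and MIR497 (7017911 to 7018022) are 209 bases apart within MIR497HG, intronic in 1 and exonic in 1 of its 2 transcripts. MIR16-1 and MIR16-2 give the same miR-16-5p, so its count cannot be divided between chromosomes 13 and 3. Their 3p arms have different sequences, which the hairpins show with the 5p and then the 3p arm in capitals.
MIR16-1: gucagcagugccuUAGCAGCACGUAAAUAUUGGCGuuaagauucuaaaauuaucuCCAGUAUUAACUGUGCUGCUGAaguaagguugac
MIR16-2: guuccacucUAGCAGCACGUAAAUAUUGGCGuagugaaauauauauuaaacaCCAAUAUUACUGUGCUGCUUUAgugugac
RefSeq names these arms miR-16-1-3p and miR-16-2-3p. The entry miR-16-3p carried no copy number, so which locus it counted is not known, and it matched no RefSeq name while the other 5 entries did. The table's entry lengths were 22 bases for miR-15b-5p, as in RefSeq, 23 for miR-16-5p (22 in RefSeq), 22 for miR-497-5p (21), 24 for miR-15a-5p (22) and 23 for miR-195-5p (21). Of 796 known entries with a RefSeq sequence, 34.7% were longer in the table.

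Total counts ran from 8168828 to 11677123 per library. Levels are in CPM, counts scaled to a common library total, after TMM scaling, which adjusts totals for differences in composition. Each mean ± SD is over the n = 4 libraries of a group. A read spans a whole mature strand, so these levels need no division by length, but adapter ligation favours some sequences, which limits comparison between microRNAs. Control library 1 stood apart: it held the lowest of the 8 values in 190 and the highest in 196 of 745 tested entries, against 35 to 101 and 53 to 127 in the other libraries. The entry miR-31-5p averaged 837 ± 166 CPM with ASO and 736 ± 305 CPM without, so it did not check the labels. Of 9 markers of blood, liver and muscle, 6 were entries. Among the blood markers, miR-142-3p and miR-150-5p stayed at or below 0.695 CPM. The markers summed to 31.5 to 46.5 CPM with ASO and 16.5 to 21.4 CPM without, most of it the liver microRNA miR-122-5p, and their part in the results was not tested.

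Within the family, miR-16-5p was the most abundant seed-bearing arm and miR-15b-5p came next, while miR-15a-5p, miR-195-5p and miR-497-5p were rare. In controls the summed level of the 5 seed-bearing arms was 1147 ± 279 CPM. miR-16-5p carried 63.1% ± 1.68 of this sum, miR-15b-5p 32.6% ± 1.06 and miR-15a-5p 2.17% ± 0.144. miR-195-5p and miR-497-5p carried 1.32% ± 0.734 and 0.817% ± 0.0992. With ASO the sum was 1573 ± 186 CPM, 1.37 times the control mean, or 1.24 times without control library 1, and miR-16-5p carried 65.5% ± 1.76 of it. Control values of the sum were 784, 1088, 1287 and 1428 CPM in libraries 1 to 4, and ASO values 1410, 1778, 1684 and 1421 CPM. The groups overlapped, since ASO libraries 1 and 4 lay below control library 4. The sum is a score over chosen members and was given no test.

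The order of levels was nearly the same in every library. miR-16-5p stood above miR-15b-5p in 8 of 8 libraries, by 1.82 to 2.32 times, and miR-15b-5p above miR-15a-5p in 8 of 8, by 11.9 to 17.0 times. miR-16-5p and miR-16-3p, at 878 and 809 CPM over all libraries, did not differ beyond their spread, with miR-16-5p higher in 5 of 8. The other close neighbours were miR-195-5p and miR-497-5p, at 14.1 and 10.1 CPM, where miR-195-5p was higher in 7 of 8 libraries by a ratio of at most 2.62. miR-15a-5p was above miR-195-5p in 7 of 8 libraries, the exception being control library 1. Among the 903 known microRNAs the 6 entries ranked 88 (miR-16-5p), 90 (miR-16-3p), 108 (miR-15b-5p), 236 (miR-15a-5p), 300 (miR-195-5p) and 323 (miR-497-5p) by mean level, so the family was not among the leading microRNAs in these libraries.

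**Figure D1:**
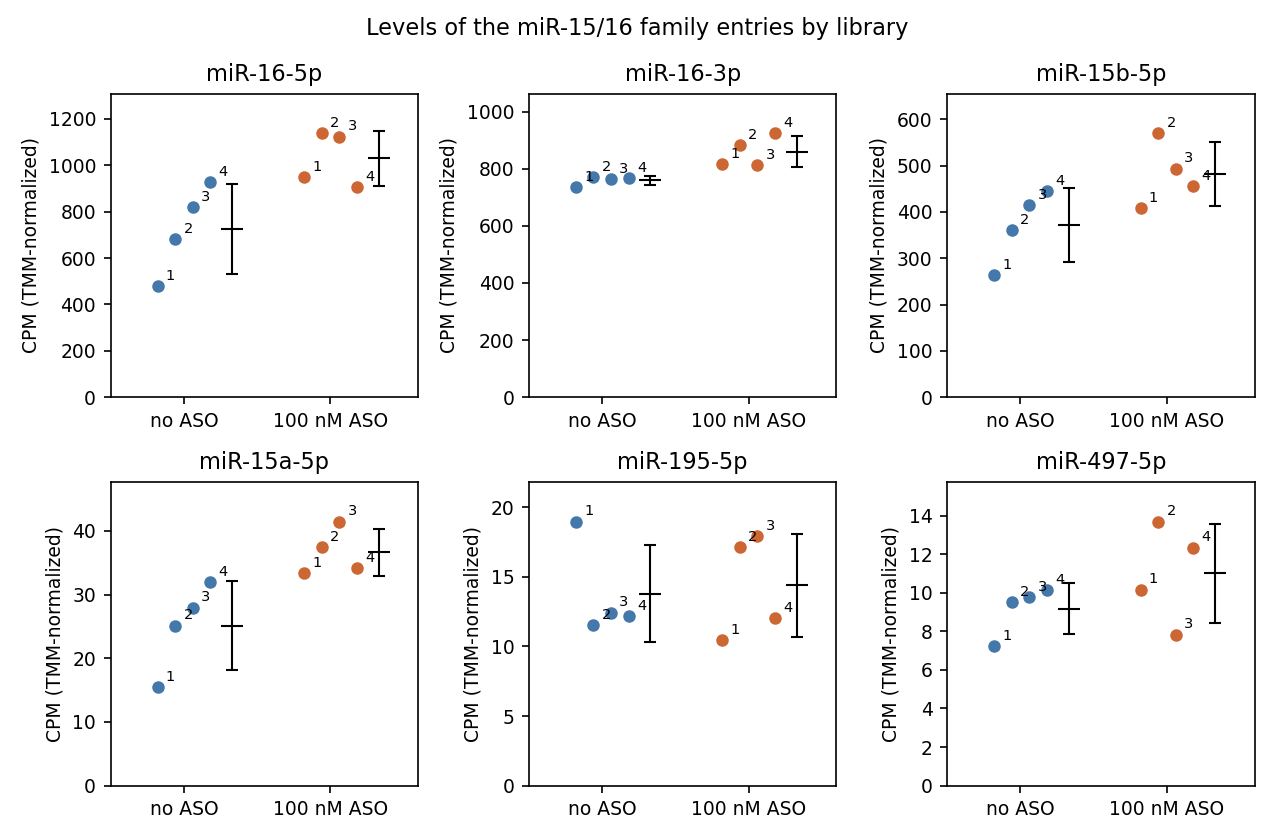
Level of each family entry in CPM after TMM scaling (vertical axes start at 0 and differ between panels) in 4 libraries without ASO (blue) and 4 with 100 nM ASO (orange); numbers are library numbers and bars are mean ± SD. Control library 1 is the lowest of the 8 for each entry except miR-195-5p, where it is the highest at 19.0 CPM, and only miR-16-3p and miR-15a-5p have groups that do not overlap.

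Against the controls, all 6 entries had a fold above 1 with ASO, and none passed the threshold. The set was drawn without the relative miR-503-5p, which fell (log2 fold change −0.91). The fit was edgeR's quasi-likelihood test over 745 entries with Benjamini-Hochberg adjustment, where 1 entry (0.134%) was called, 0 of them higher with ASO. A fold above 1 was found for 51.7% of all tested entries, and the median log2 fold change was 0.32 over the 6 entries and 0.01 over all. At an unadjusted p under 0.05 there were 3 of the 6 (miR-16-3p, miR-15a-5p and miR-16-5p), all higher with ASO, against 4.43% of all entries in that direction and 10.5% in either, and their smallest adjusted p was 0.402. The labels do not say that libraries came from separate cultures, so these p-values measure only the spread between libraries. Nor are the 6 entries independent, since miR-16-5p, miR-15b-5p and miR-15a-5p moved nearly together across libraries. The share of the 6 set against all entries is therefore no test of the family.

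miR-16-5p, the member studied most as a repressor of cyclins, stood at 948, 1139, 1124 and 907 CPM in ASO libraries 1 to 4. In control libraries 1 to 4 it stood at 479, 681, 821 and 928 CPM. ASO libraries 1, 2 and 3 lay above all controls, but ASO library 4 lay below control library 4, so the groups overlapped. The means were 1029 ± 119 CPM with ASO and 727 ± 194 CPM without. On the log2 scale the change was 0.50 (SE 0.20, 95% interval 0.03 to 0.97, edgeR adjusted p = 0.445), or 1.42-fold (1.02 to 1.96). Without control library 1 the log2 fold change was 0.36, and without control library 4 it was 0.63. The counts were 4823 to 13483, and the SD between controls was 23.1 times what counting alone gives.

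miR-15a-5p, which lies in the same host gene as the chromosome 13 copy of miR-16, stood at 33.3, 37.5, 41.5 and 34.2 CPM in ASO libraries 1 to 4. In controls it stood at 15.5, 25.1, 28.0 and 32.0 CPM, from 156 to 362 counts. All 4 ASO libraries lay above all 4 controls, but the gap between the nearest libraries, 32.0 and 33.3 CPM, was inside their counting intervals (Wilson 95%, 28.8 to 35.4 and 29.9 to 37.2 CPM). The means were 36.6 ± 3.69 and 25.1 ± 7.02 CPM, with a log2 fold change of 0.54 (SE 0.22, 95% interval 0.04 to 1.05, edgeR adjusted p = 0.445). Without control library 1 the log2 fold change was 0.38, and without control library 4 it was 0.67.

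miR-15b-5p, from the SMC4 intron on chromosome 3, stood at 408, 570, 494 and 455 CPM in ASO libraries 1 to 4. Its control values were 263, 360, 416 and 445 CPM. ASO library 1 lay below control libraries 3 and 4, so the groups overlapped. The means were 482 ± 68.5 and 371 ± 80.0 CPM, with a log2 fold change of 0.38 (SE 0.18, 95% interval −0.04 to 0.79, edgeR adjusted p = 0.445). Without control library 1 the log2 fold change was 0.26, and without control library 4 it was 0.46.

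miR-16-3p, the opposite arm, stood at 816, 883, 811 and 924 CPM in ASO libraries 1 to 4. In controls it stood at 736, 771, 763 and 767 CPM, a range so narrow that the SD, 15.99 CPM, was 1.83 times what counting alone gives. The ASO mean was 859 ± 54.7 CPM and the control mean 759 CPM, and all ASO libraries lay above all controls. The log2 fold change was 0.18 (SE 0.06, 95% interval 0.04 to 0.31), a fold of 1.13, and the edgeR adjusted p was 0.402, the smallest among the 6 entries. DESeq2, the other count test run, gave 0.17 with an adjusted p of 0.0434, among 21 calls (2.82% of 745 entries), and called none of the other 5. DESeq2 gave no adjusted p to 280 of the 745 entries, so the share called among the rest is larger than 2.82%. Groups that did not overlap with ASO higher were found for 2 of the 6 entries, this one and miR-15a-5p, against 3.09% of all tested entries in that direction and 8.32% in either.

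The pair from chromosome 17 comprises microRNAs often low in tumours, and neither member's groups were apart. miR-195-5p stood at 10.5, 17.1, 17.9 and 12.05 CPM in ASO libraries 1 to 4; controls stood at 19.0, 11.5, 12.4 and 12.2 CPM. Its high libraries were thus ASO 2, ASO 3 and control 1, on both sides of the comparison. The log2 fold change was 0.06 (SE 0.24, 95% interval −0.50 to 0.62, edgeR adjusted p = 0.960), and it turned to −0.01 with upper-quartile scaling. The wide interval allows a fold from 0.709 to 1.54. miR-195-5p differs from the far more abundant miR-16-5p at few bases, and how mismatched reads were counted is not given in the sources used here, so its level is uncertain.

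miR-497-5p was the rarest member, with 73 to 162 counts per library. It stood at 10.2, 13.7, 7.82 and 12.3 CPM in ASO libraries 1 to 4 and at 7.24, 9.52, 9.76 and 10.2 CPM in controls. ASO library 3 was low, just above control library 1, and the groups overlapped. The log2 fold change was 0.26 (SE 0.20, 95% interval −0.21 to 0.74, edgeR adjusted p = 0.619), or 0.43 without that library and 0.14 without ASO library 2.

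**Figure D2:**
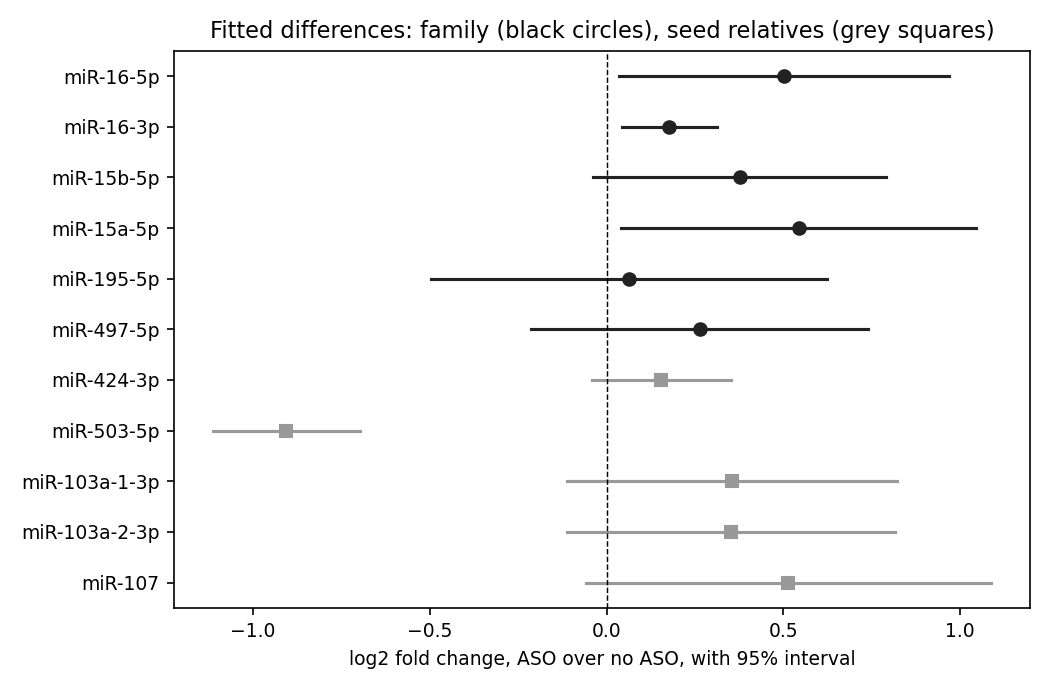
Points are fitted log2 fold changes of ASO over no ASO and lines are 95% intervals, from edgeR's fit of all 745 entries. Black circles are the 6 family entries and grey squares the 5 entries taken as relatives, of which miR-424-3p has an unrelated seed. The family points lie between 0.06 and 0.54 and miR-503-5p alone lies below 0, at −0.91.

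Across libraries miR-16-5p, miR-15b-5p and miR-15a-5p moved nearly together, whichever group a library belonged to. The ratio of miR-16-5p to miR-15a-5p was 28.4, 30.4, 27.1 and 26.5 in the 4 ASO libraries, and 30.9, 27.1, 29.4 and 29.05 in controls. It averaged 28.1 ± 1.71 with ASO and 29.1 ± 1.56 without, although miR-16-5p itself ran from 479 to 1139 CPM. Over the 8 libraries the SD of the log2 ratio was 0.08, and counting alone would give 0.09, so this ratio varied no more than the counts of miR-15a-5p allow. The ratio of miR-16-5p to miR-15b-5p, both abundant enough for a sharper view, had an SD of 0.12 where counting gives 0.03. It averaged 2.15 ± 0.177 with ASO and 1.94 ± 0.115 without, and the groups overlapped.

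The other members did not keep step. The ratio of miR-16-5p to miR-195-5p had an SD of 0.56 on the log2 scale, where counting gives 0.13, and ran from 25.3 in control library 1 to 90.6 in ASO library 1. The neighbours miR-195-5p and miR-497-5p also parted, though their hairpins lie in 1 cluster. Their ratio was 2.62 in control library 1 and 2.29 in ASO library 3, and 0.976 to 1.27 in the other 6 libraries. The log2 SD of this ratio was 0.52, where counting gives 0.19.

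**Figure D3:**
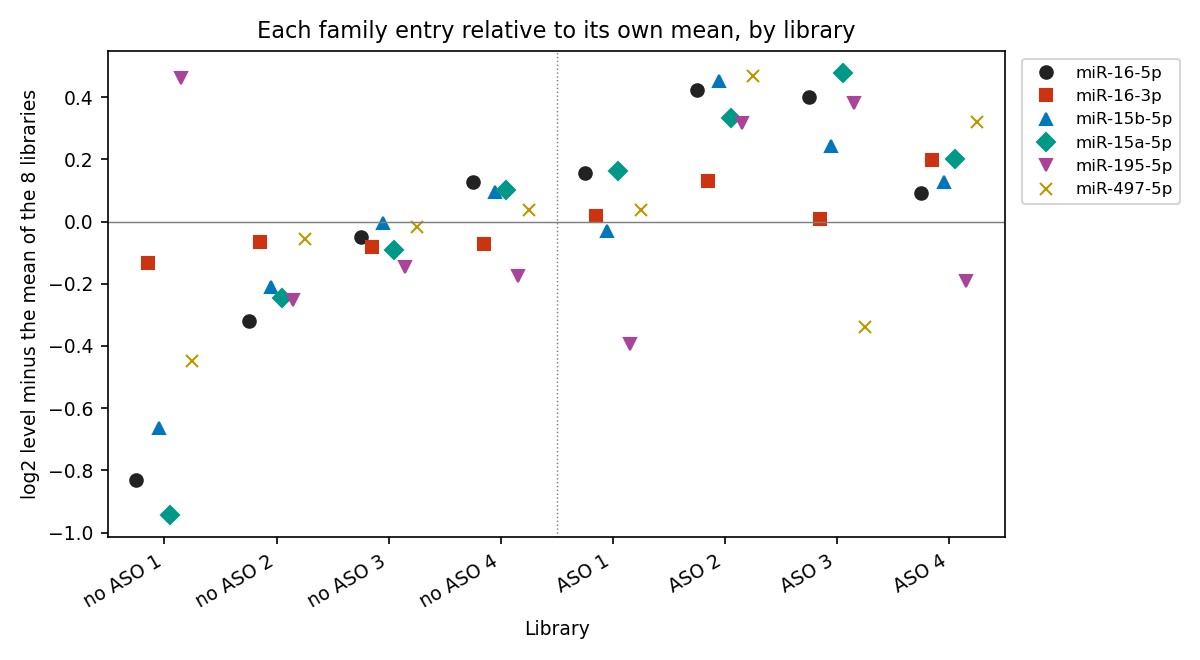
Log2 level of each family entry minus that entry's mean over the 8 libraries (vertical axis) in each library (horizontal axis; controls left of the dotted line). In control library 1 the 5p arms of miR-16, miR-15b and miR-15a sit at −0.94 to −0.66 while miR-195-5p sits at 0.46, and miR-16-3p stays within 0.20 of its mean in all libraries.

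Much of the spread among controls lay between library 1 and the rest. In control library 1 miR-16-5p stood at 59.1%, miR-15b-5p at 64.7%, miR-15a-5p at 54.6% and miR-497-5p at 73.8% of the mean of the other 3 controls. miR-195-5p stood at 157% of that mean and miR-16-3p at 95.9%. Among 171 entries of at least 100 CPM counted in every library, 16 varied more between controls than miR-16-5p (SD 0.42 on the log2 scale, against a median of 0.17), and 161 varied more than miR-16-3p (SD 0.03). In the ASO group the SD was 0.17 for miR-16-5p and 0.09 for miR-16-3p, against a median of 0.12, and 51 and 115 of the 171 entries varied more, so neither stood near an end there.

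The balance between these arms varied accordingly. In ASO libraries 1 to 4, miR-16-5p made up 53.7%, 56.3%, 58.1% and 49.5% of the miR-16 counts. In controls the share was 39.4%, 46.9%, 51.8% and 54.8%. Counting error was small, with a Wilson 95% interval of 38.5% to 40.3% for the lowest library. The means were 54.4% ± 3.71 with ASO and 48.2% ± 6.71 without, or 51.2% ± 3.97 without control library 1, and the groups overlapped. The share was given no test. The 2 entries were thus read about equally often, with miR-16-3p ahead in control libraries 1 and 2 and ASO library 4. The count of miR-16-5p pools MIR16-1 and MIR16-2, while the locus of miR-16-3p is not known. Ligation may also favour either sequence, so the share may not give the balance of arms within a hairpin. Both arms were tested and above 0 in every library for 6 hairpins. The SD of the log2 ratio of 5p to 3p was 0.35 for miR-16, between 0.16 for miR-500a and 0.29 for miR-576 on one side and 0.67 for miR-548au on the other. miR-135a and miR-199a, with nearly equal counts for both arms, had an SD of at most 0.02. Entries of those 2 hairpins may hold the same reads, whereas the miR-16 arms had different counts in all libraries. The mean log2 ratio was higher with ASO for all 6 hairpins, by 0.36 for miR-16, 0.40 for miR-576, 0.36 for miR-548au and 0.06 for miR-500a, and by at most 0.01 for miR-135a and miR-199a.

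**Figure D4:**
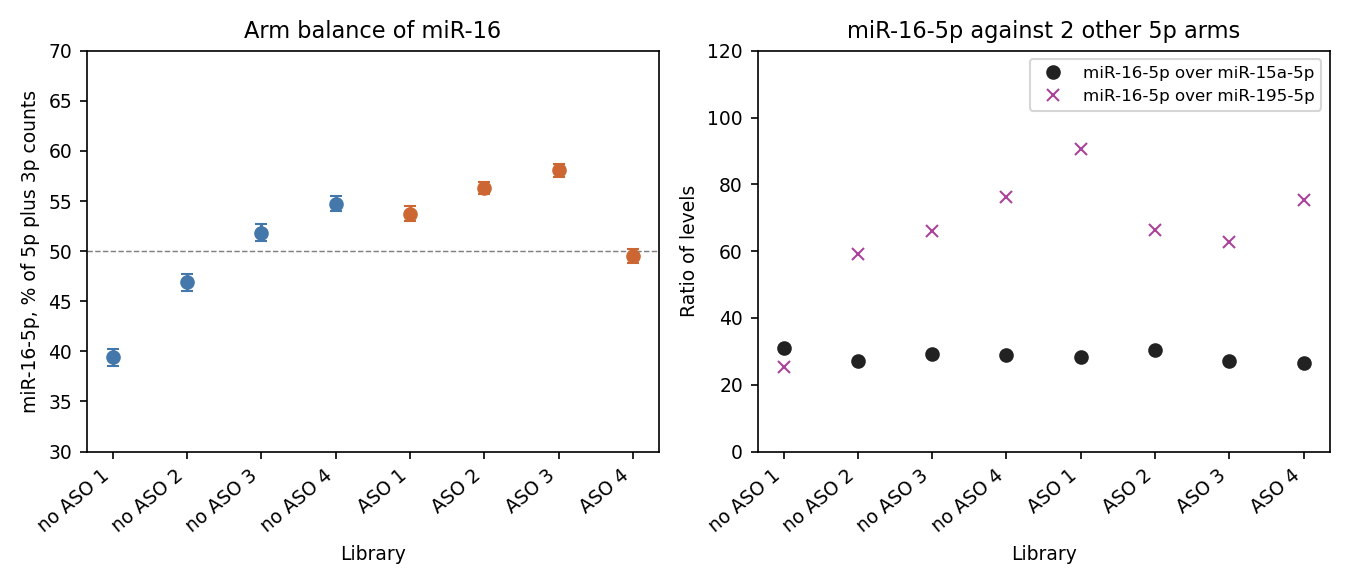
Left, share of miR-16-5p in the counts of both miR-16 arms, in percent with Wilson 95% intervals, in libraries without ASO (blue) and with ASO (orange), on an axis that does not start at 0. Right, ratio of the level of miR-16-5p to miR-15a-5p (circles, 26.5 to 30.9) and to miR-195-5p (crosses, 25.3 to 90.6) in the same libraries.

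Several entries outside the family tracked miR-16-5p across libraries. Likeness was measured as the SD over the 8 libraries of the log2 ratio to miR-16-5p, with 1 CPM added to each level, among 175 other entries averaging at least 100 CPM, where the median SD was 0.39. The 5 nearest entries outside the family were miR-30c-5p, miR-186-5p, miR-23a-3p, miR-93-5p and miR-194-5p, with SDs of 0.07 to 0.08. miR-15b-5p ranked 21 (0.12) and miR-16-3p ranked 75 (0.35). miR-15a-5p averaged 30.9 CPM, under the cut of 100 CPM, and was not ranked, but its SD without the added CPM was also 0.08. All 5 of the nearest entries outside the family were lowest in control library 1, as was miR-16-5p. Their log2 fold changes were 0.38 to 0.54, with none past the threshold (smallest edgeR adjusted p = 0.412). These values share libraries and scaling, so they describe the libraries and carry no test. Entries chosen for likeness to miR-16-5p repeat its pattern by that choice, so their low library and fold changes add no separate support.

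Entries taken as relatives gave mixed values. Of 9 names listed as relatives, 4 were entries, and 2 further entries for copies of miR-103a-3p were added after the table had been seen. miR-103a-3p itself was at 0 in 6 of the 8 libraries and was not tested. In ASO libraries 1 and 3 it held 131770 and 166935 counts, the same as miR-103a-1-3p. That entry was abundant in every library, so the zeros do not show that the microRNA was absent. Of the 5 tested, 1 fell and 0 rose. miR-503-5p, whose seed AGCAGCG departs from that of the family at its last base, fell from 240 ± 21.7 to 128 ± 9.07 CPM (log2 fold change −0.91, SE 0.09, edgeR adjusted p = 0.00854), with all ASO libraries below all controls. It was the 1 entry called in the whole table, and this call was lost (0 entries called) with no filter on low counts, under a replicate block by library number and without control library 2. miR-424-3p, from the hairpin beside MIR503 on chromosome X, averaged 491 ± 21.1 CPM with ASO and 441 ± 44.6 CPM without (0.15, edgeR adjusted p = 0.469). Its seed, AAAACGU, is unrelated to that of the family. It is the opposite arm of miR-424-5p, which has the family seed but was not an entry. miR-107, in which the letters of the family seed start at base 1 instead of base 2, averaged 1131 ± 204 and 793 ± 242 CPM (0.51, edgeR adjusted p = 0.445). The entries miR-103a-1-3p and miR-103a-2-3p had log2 fold changes of 0.36 and 0.35 (edgeR adjusted p = 0.487 for both). Their counts were nearly equal in every library (131770 and 132689 in ASO library 1), and as copies of 1 microRNA they may share reads. miR-107 and both miR-103a entries ranked 15 to 18 in likeness to miR-16-5p, and miR-503-5p ranked 167 of 175.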

How the data were processed

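Small RNA libraries of HEK293 cells, 4 per group, were grouped by their titles. Per the labels' protocols, a Qiagen kit gave the RNA and a NEB kit the libraries. The submitters' processing notes name bcl2fastq 2.20, Trimmomatic 0.30, edgeR 3.4.6 and GRCh38. For the aligner, the counter and the annotation of microRNAs, the name was not given in the sources used here. The authors deposited whole-number counts per entry, not normalized, beside columns headed TPM that equal CPM computed from the counts within 0.223 CPM, and a length of 18 to 25 per entry.

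Members were found by name. All 6 passed the filter (above 0 in at least 4 libraries, mean count at least 10), and none shared identical counts with another entry. edgeR 4.0.16 (TMM, trended dispersion, quasi-likelihood, two-sided, Benjamini-Hochberg, 0.05) was fitted to the whole table, and DESeq2 1.42.0 was an alternative. Scaling used the totals of the 745 tested entries, so 1 count was 0.0845 to 0.121 CPM. Standard errors are the size of the change over the square root of F. On simulated counts of 700 entries in this comparison, edgeR found 6.49% of entries changed 1.5-fold, 35.4% of those changed 2-fold and 64.4% of those changed 4-fold. These were 5, 17 and 38 calls, and 5 unchanged entries were also called. Each entry was simulated independently, without shifts shared by many entries of a library, so these shares may not hold for the real libraries. Wilson 95% intervals cover counting error only.

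Named entries were the members, listed relatives, the 5 entries nearest to miR-16-5p and miR-31-5p. Members, relatives and markers were chosen with earlier results of these data known. No label ties libraries of the same number, so the fit had no replicate block. Alternatives covered scaling, filter, test, known microRNAs only, identical entries, the replicate block and each library left out.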

Additional observations from a re-analysis of the deposited data

Results flagged for a closer look

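Among the 16 groups of 4 libraries checked, 1 held a library far from the others. miR-195-5p stood at 19.0 CPM in control library 1, from 191 counts, against 11.5 to 12.4 CPM in the other 3 controls (a gap of 0.883 of the group's range, above Dixon's 95% limit). Chance gives such a gap in about 1 in 20 groups. ASO libraries 2 and 3, at 17.1 and 17.9 CPM, were lower than control library 1 but inside its Wilson 95% counting interval of 16.4 to 21.8 CPM.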

How the results depend on the processing

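Over 17 alternatives, no family entry passed the threshold in edgeR, and DESeq2 called miR-16-3p (0.17, adjusted p = 0.0434). Log2 fold changes stayed above 0 for 5 entries: 0.36 to 0.63 for miR-16-5p, 0.38 to 0.67 for miR-15a-5p, 0.26 to 0.46 for miR-15b-5p, 0.13 to 0.24 for miR-16-3p and 0.14 to 0.43 for miR-497-5p. miR-195-5p turned to −0.010 with upper-quartile scaling, and on leaving out 1 library it ran from −0.031 (without ASO library 2) to 0.27 (without control library 1), with −0.024 without ASO library 3, −0.0052 without control library 2 and −0.0035 without control library 4. The cause was not tested. The count of calls over the whole table was 1 (miR-503-5p, so not called where the count is 0), and it was 21 with DESeq2 (9 higher), 0 with no filter, 5 with a mean count of at least 100, 4 for known microRNAs only, 4 with identical entries collapsed, and 0 to 5 on leaving out 1 library (0 without control library 2, 5 without control library 4). Under a replicate block by library number the count was 0, and miR-16-5p had a log2 fold change of 0.54 (adjusted p = 0.509). Same-numbered libraries correlated by −0.039 to 0.297 in their deviations, and 1 of 4 correlated best with its own number. These values gave no clear sign of pairing, and whether the numbers pair the libraries remains unknown. Leaving out 1 library, the mean summed level ran from 1505 to 1628 CPM with ASO and from 1053 to 1268 CPM without. The mean miR-16 arm share ran from 53.2% to 56.0% and from 46.0% to 51.2%. Leaving out 1 of 4 values cannot move a mean by as much as the group's SD, so these ranges do not test stability. With library totals and no TMM the mean summed level was 1573 and 1140 CPM. Of the 5 nearest entries, 4 were retained at a pseudocount of 0.1 CPM and 5 at a mean of at least 10 CPM. Counts of miR-195-5p and miR-497-5p limit their precision.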
